A study of Mus musculus with 8 samples.

Results

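Cytochrome P450 enzymes of families 1 to 3 are the haem-containing monooxygenases with which the liver modifies drugs, pollutants, steroids and fatty acids. They were taken here as the protein-coding genes whose symbol begins with Cyp, then 1, 2 or 3, a subfamily letter and a gene number. The genes *Cyp2b9*, *Cyp2b10*, *Cyp2b13* and *Cyp2d9* were left out by name. The rule found 45 genes among the 18095 genes of the count table, of which 13939 are protein-coding, and it covers 14 subfamilies from Cyp1a to Cyp3a. In the annotation, 56 genes meet it, and the other 11, such as *Cyp2b19*, *Cyp2c65* and *Cyp3a41a*, were not analysed here.

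RNA of whole livers was sequenced from 4 HFD WT and 4 HFD Inpp4b-/- males at an age of 12 weeks, 1 library per mouse. The knockout was not restricted to a cell type, and INPP4B is a phosphatase of membrane lipids. Both groups were on HFD, which their mothers had received since before mating, so no comparison with a low-fat diet was made. The sample labels give the strain background as C57BL/6, while the study's methods describe breeding into FVB. The labels also list ribosomal RNA removal with Ribo-Zero.

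Each of these enzymes inserts oxygen into its substrate with electrons from cytochrome P450 reductase, and many of the genes are induced by their own substrates. The receptor AHR acts on family 1. CAR and PXR act on subfamilies 2b, 2c and 3a. In mouse liver, many of the genes are expressed around the central vein, and several subfamily 2a, 2c and 3a genes differ between the sexes through the growth hormone pattern.

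Libraries of HFD WT held 25893430 to 31427831 counts, and those labelled HFD Inpp4b-/- held 32738435 to 36662531. *Inpp4b* had 6, 20, 5 and 8 counts in WT replicates 1 to 4, and 33, 10, 9 and 14 counts in Inpp4b-/- replicates 1 to 4. Its level was thus not lower in the labelled knockouts (log2 ratio 0.39, p = 0.486 by a two-sided exact permutation test of 4 against 4). The exons from which these reads came are not known, and every direction given here rests on the labels. The 8 hepatocyte markers were all detected, and their sum was 81747 to 92592 CPM over the HFD WT libraries and 85360 to 104358 CPM over the others, where CPM is the count of a gene per 1000000 normalized counts. None of these 8 was called. The p-values given here weigh the difference between the genotypes against the spread within them, in these 8 mice alone. The fits over all genes estimate that spread partly from the other genes.

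WT replicate 2 stood apart in many P450 genes. It was the highest HFD WT library for 16 of the 39 P450 genes that passed the expression filter (41.0%), while it was the highest for 26.2% of all tested genes. For 4 of the 39 (10.3%), its value lay so far above the other 3 that the gap passed Dixon's limit, compared with 0.975% of all tested genes. The share of all counts that fell in the 45 genes was 2.83% in this library and 1.53% to 1.90% in the other 7. Differences that rest on this library are therefore given with and without it.

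The promoters of 5 genes are printed here, the first 3 for genes whose values are described below and the next pair for its likeness. They are the RefSeq windows of 250 bases before to 50 bases after the start, on GRCm38.p6 and 5′ to 3′ on the gene's own strand. A window was found for 38 of the 45 genes. In the first 3, capitals mark matches on either strand, at any position. The letters are TATAAA (those of a TATA box), AGGTCA (the half-site of nuclear receptors) and CAAAGTCCA (a site of the hepatocyte factor HNF4). Relative to the start, TATAAA lies at -31 in *Cyp2c38*, -29 in *Cyp2c70* and -234 in *Cyp3a11*. *Cyp2c38* and *Cyp2c70* lie in the Cyp2c cluster, and *Cyp3a11* is the most abundant gene of its subfamily.
Cyp2c38, chr19:39463026-39463325, minus strand: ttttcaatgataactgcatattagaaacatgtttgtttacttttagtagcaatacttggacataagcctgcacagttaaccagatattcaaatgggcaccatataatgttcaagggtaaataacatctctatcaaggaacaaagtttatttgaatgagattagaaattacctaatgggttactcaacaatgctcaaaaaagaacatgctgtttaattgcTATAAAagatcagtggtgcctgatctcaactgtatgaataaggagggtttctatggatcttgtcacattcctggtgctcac
Cyp2c70, chr19:40187237-40187536, minus strand: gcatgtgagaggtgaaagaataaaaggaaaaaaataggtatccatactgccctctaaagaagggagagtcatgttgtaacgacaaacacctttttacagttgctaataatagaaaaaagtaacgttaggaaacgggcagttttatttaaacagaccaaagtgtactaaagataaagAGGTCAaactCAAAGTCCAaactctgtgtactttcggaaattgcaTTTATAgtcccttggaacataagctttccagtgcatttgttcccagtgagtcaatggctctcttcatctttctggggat
Cyp3a11, chr5:145879805-145880104, minus strand: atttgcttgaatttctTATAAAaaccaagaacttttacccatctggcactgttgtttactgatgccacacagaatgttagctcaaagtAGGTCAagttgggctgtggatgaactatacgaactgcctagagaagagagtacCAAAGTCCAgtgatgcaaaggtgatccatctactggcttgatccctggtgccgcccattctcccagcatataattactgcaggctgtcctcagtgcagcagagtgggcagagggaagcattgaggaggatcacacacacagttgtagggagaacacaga
The next pair, *Cyp2a4* and *Cyp2a5*, has the most alike promoters of any pair within a subfamily when identical bases are counted over the whole window, among the 38 genes that have one, and capitals mark the bases in which they differ or that lie outside the alignment. Of 299 aligned bases, 294 were identical.
Cyp2a4, chr7:26306942-26307241, plus strand: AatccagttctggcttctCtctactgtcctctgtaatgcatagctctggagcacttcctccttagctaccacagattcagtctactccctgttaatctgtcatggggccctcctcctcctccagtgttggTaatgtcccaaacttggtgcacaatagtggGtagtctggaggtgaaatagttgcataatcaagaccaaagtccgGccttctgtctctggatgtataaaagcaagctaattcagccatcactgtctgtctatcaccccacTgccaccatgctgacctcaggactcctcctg
Cyp2a5, chr7:26835089-26835388, plus strand: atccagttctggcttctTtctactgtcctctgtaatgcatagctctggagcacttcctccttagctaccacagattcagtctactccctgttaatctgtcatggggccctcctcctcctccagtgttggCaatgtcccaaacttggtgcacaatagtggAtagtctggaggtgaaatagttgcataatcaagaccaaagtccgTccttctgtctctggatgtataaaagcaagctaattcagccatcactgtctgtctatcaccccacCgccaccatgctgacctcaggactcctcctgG

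TATAAA occurred in 23 of the 38 windows (60.5%), against 14.2% of the 27025 windows of all genes. Matches at any position were counted, from -234 in *Cyp3a11* to 40 in *Cyp2c40*, so not every match is a TATA box. AGGTCA occurred in 13 (34.2% against 16.04%). CAAAGTCCA was held by 8 windows (21.1% against 0.477%), those of *Cyp2c40*, *Cyp2c67*, *Cyp2c68*, *Cyp2c69*, *Cyp2c70*, *Cyp3a11*, *Cyp3a16* and *Cyp3a41b*. The core letters read by AHR, GCGTG, were in 5 windows (13.2% against 32.5%), among them *Cyp1a1* and *Cyp1b1*, both known AHR targets. Neighbouring genes have related promoters, so these windows are not independent, and a match of letters does not show that a factor binds.

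The level of the 45 genes, in CPM per kb of exon over the 8 libraries, ran from 3141 for *Cyp2e1*, which oxidizes ethanol and acetone, down to 0.0430 for *Cyp3a41b*. *Cyp2e1* ranked 18 among the 13939 protein-coding genes and alone took 0.479% to 0.838% of all counts. It was followed by *Cyp2d10* at 599, *Cyp2f2* at 505, *Cyp2d26* at 469, *Cyp3a11* at 418 and *Cyp1a2* at 355. *Cyp2e1* exceeded *Cyp2d10* in 8 of 8 libraries. *Cyp2d10* exceeded *Cyp2f2* in 7 of 8, but *Cyp3a11* exceeded *Cyp1a2* in only 3 of 8, so the order of the latter pair is within the spread between mice. With the length of the longest coding transcript in place of all exons, *Cyp3a11* ranked 2 with 909 CPM per kb and *Cyp2e1* remained at rank 1 with 3698. Reads of near-identical genes can be assigned to the wrong copy. Of the 150-base windows of the transcript, 82.7% were shared with another gene in *Cyp3a41b*, 29.1% in *Cyp2c40*, 22.5% in *Cyp2c69* and 13.0% in *Cyp2c67*, while *Cyp2c38*, *Cyp2c70*, *Cyp2c29*, *Cyp2c55*, *Cyp3a11* and *Cyp2e1* had 0.

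**Figure D1:**
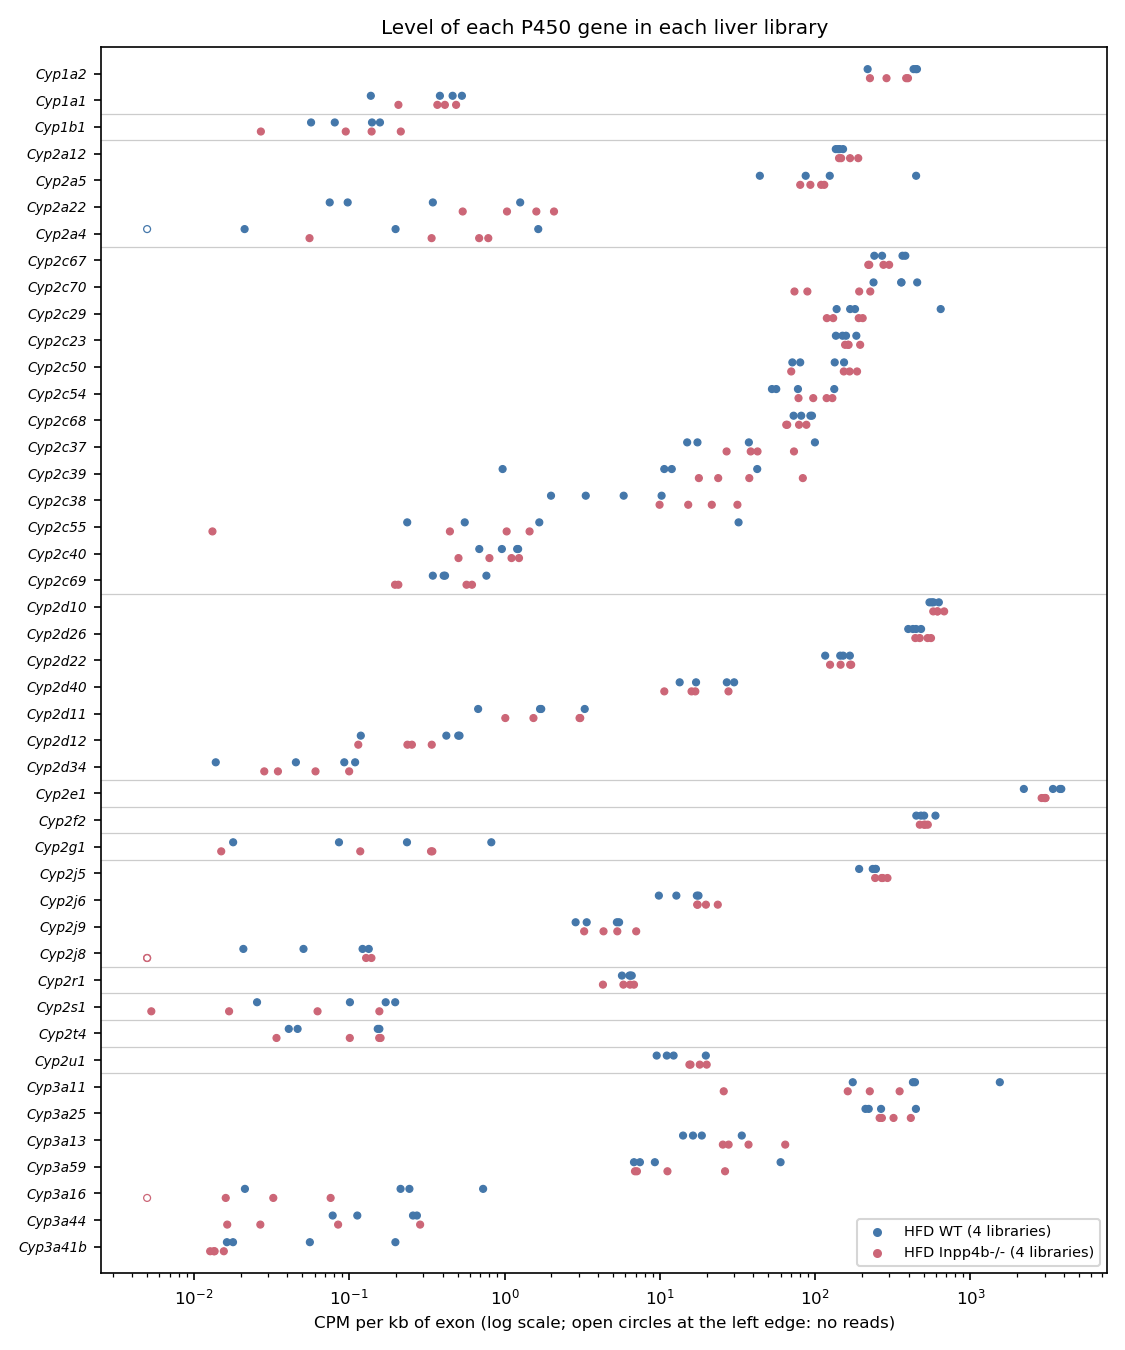
Level of each of the 45 P450 genes in CPM per kb of exon (log axis), grouped by subfamily, with one point per library (blue, 4 HFD WT; red, 4 HFD Inpp4b-/-; open circles, no reads). *Cyp2e1* lies above every other gene in all 8 libraries, and single HFD WT points far to the right, as for *Cyp2c55*, *Cyp2c29*, *Cyp3a11* and *Cyp3a59*, belong to WT replicate 2.

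The comparison of HFD Inpp4b-/- with HFD WT asked whether loss of *Inpp4b* on HFD altered hepatic gene expression. None of the 39 tested P450 genes was called differentially expressed by edgeR with an adjusted p below 0.10 and a change of more than 1.3-fold, while 174 of all 14866 tested genes were (1.17%). The count of 0 depends on the rule that chose the genes, since *Cyp2b9*, left out by name, was called and rose. An unadjusted p under 0.05 was reached by 6 of the 39 (15.4%), near the 13.9% of all tested genes. These were *Cyp2c38*, *Cyp2c70*, *Cyp3a13*, *Cyp2c55*, *Cyp2j6* and *Cyp3a11*. The log2 fold changes were positive in 19 and negative in 20, with a median of -0.01, and the median of all tested genes was 0.00275. The libraries of the genotypes did not overlap in 1 of the 39, *Cyp2c70*, against 8.72% of all tested genes.

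The spread between mice of one genotype was wider for these P450 genes than for the median gene. The median SD of log2 CPM was 0.543 for the 39 genes in HFD WT and 0.479 in HFD Inpp4b-/-, while over all tested genes it was 0.263 and 0.218. Without WT replicate 2, the HFD WT medians were 0.445 and 0.244. The median standard error of a log2 fold change was correspondingly 0.33 for the P450 genes and 0.183 for all tested genes. *Cyp2c55* varied the most in both genotypes (SD 2.99 and 2.05), but without WT replicate 2 its SD in HFD WT was 1.301 and *Cyp2c39*, at 2.002, varied the most there.

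DESeq2 called 3 of the 41 genes for which it gave an adjusted p, at the same thresholds, *Cyp2c38*, *Cyp2c70* and *Cyp3a16*, against 4.04% of all genes it tested. Without WT replicate 2, edgeR called *Cyp2c38* (adjusted p = 0.0628) and *Cyp2a22* (adjusted p = 0.0836), when 2.26% of all tested genes were called. That library was singled out for high values in these P450 genes and was the highest HFD WT library for both. Leaving it out therefore widens both differences. *Cyp2u1* was called without WT replicate 3 (log2 fold change 0.66, edgeR, adjusted p = 0.0942), with 0.721% of all genes called.

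**Figure D2:**
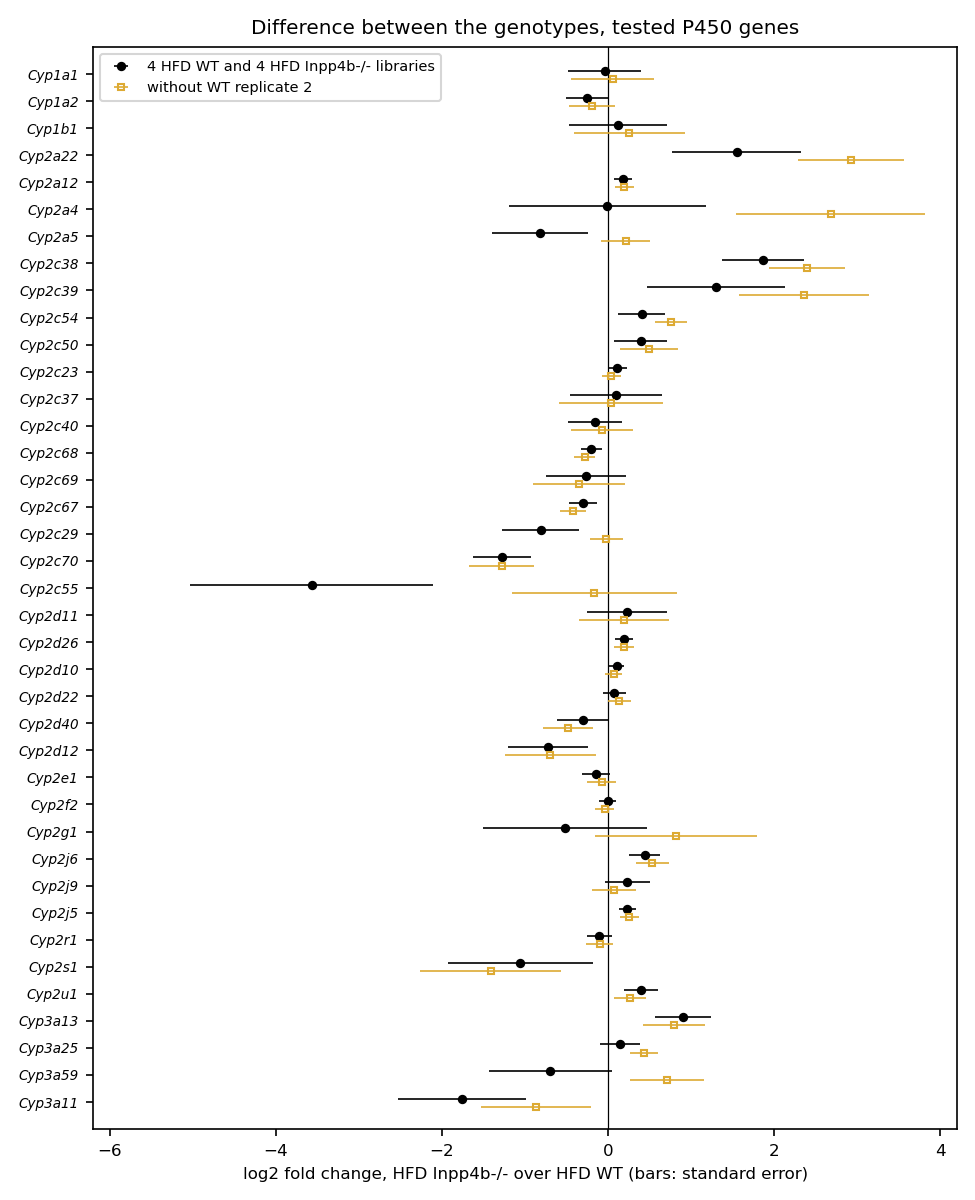
Log2 fold change of HFD Inpp4b-/- over HFD WT with its standard error for the 39 tested P450 genes, ordered by subfamily, from edgeR with all 8 libraries (black) and without WT replicate 2 (open squares). *Cyp2c55* moves from -3.57 to -0.17 and *Cyp2a5* from -0.82 to 0.21 when this library is left out, whereas *Cyp2c70* is at -1.28 in both fits.

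In family 1, the summed level of subfamily 1a was nearly all *Cyp1a2* (99.9%), which metabolizes caffeine and aromatic amines. *Cyp1a2* (chr9:57676937-57683703) was at 910, 895, 866 and 438 CPM in HFD WT replicates 1 to 4 and at 580, 453, 776 and 797 CPM in HFD Inpp4b-/- replicates 1 to 4. WT replicate 4 was lower than the other HFD WT libraries, and the genotypes overlapped. On the log2 scale the difference was -0.25 (standard error 0.25, edgeR, adjusted p = 0.694). *Cyp1a1*, the most AHR-inducible gene of the group, stayed between 0.384 and 1.48 CPM in the 8 libraries. *Cyp1b1* (chr17:79701537-79715061), which hydroxylates oestradiol and is expressed mainly outside hepatocytes, was at 0.332, 0.819, 0.472 and 0.922 CPM in HFD WT. Its values in HFD Inpp4b-/- were 0.555, 0.158, 1.25 and 0.814 CPM, so the groups overlapped (log2 fold change 0.12, standard error 0.59, edgeR, adjusted p = 0.95).

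Subfamily 2a holds steroid and coumarin hydroxylases. Its leading gene per length, *Cyp2a12* (chr7:27029081-27037375), had the narrowest range of the 4. It was at 469, 523, 497 and 486 CPM in HFD WT and at 508, 492, 655 and 580 CPM in HFD Inpp4b-/- (log2 fold change 0.18, standard error 0.11, edgeR, adjusted p = 0.49). *Cyp2a5* (chr7:26835305-26843548), the coumarin hydroxylase, was at 257, 926, 180 and 91.3 CPM in HFD WT, with WT replicate 2 far above the rest. The libraries labelled HFD Inpp4b-/- lay at 166, 193, 227 and 237 CPM, inside the HFD WT range. The difference was -0.82 on the log2 scale (standard error 0.58, edgeR, adjusted p = 0.568) and became 0.21 without WT replicate 2 (adjusted p = 0.775).

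*Cyp2a4*, a steroid hydroxylase of female-biased expression whose promoter is printed above beside that of *Cyp2a5*, was far less abundant. It was counted 1, 91, 0 and 9 times in HFD WT and 43, 52, 3 and 21 times in HFD Inpp4b-/-. The per-length level over the 8 libraries was 0.467 CPM per kb, against 137 for *Cyp2a5*. Both genes were highest in WT replicate 2 among the HFD WT libraries. On the log2 scale the difference of *Cyp2a4* was -0.01 ± 1.18 (standard error) with all libraries, where edgeR gave an adjusted p of 0.997. Without WT replicate 2 it was 2.68 ± 1.13, with an edgeR adjusted p of 0.293. WT replicate 3 had no read of *Cyp2a4*. The count table needed a read in every library of a genotype, so this gene is in it only through HFD Inpp4b-/-. Its higher level there without WT replicate 2 is therefore not independent evidence of a rise. Of the 150-base windows of the *Cyp2a4* transcript, 4.22% were shared with *Cyp2a5*, and the part of misassigned reads in its low counts was not tested.

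*Cyp2a22* (chr7:26931631-26939384) was at 0.258, 4.35, 0.337 and 1.19 CPM in HFD WT. In HFD Inpp4b-/- its values were 5.52, 3.57, 7.18 and 1.85 CPM. The HFD WT libraries other than replicate 2 all lay below the lowest library labelled HFD Inpp4b-/-. The log2 fold change was 1.55 (standard error 0.78, edgeR, adjusted p = 0.415) and 2.92 without WT replicate 2 (standard error 0.64, adjusted p = 0.0836).

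Subfamily 2c, with 13 genes the largest, epoxidizes fatty acids and hydroxylates steroids, drugs and bile acids. *Cyp2c70* (chr19:40153353-40187333) hydroxylates bile acids to the muricholic acids of mouse bile. It was at 899, 712, 709 and 471 CPM in HFD WT and at 146, 177, 380 and 448 CPM in HFD Inpp4b-/-. Every HFD WT library was thus above every library labelled HFD Inpp4b-/-, although WT replicate 4 and Inpp4b-/- replicate 4 were close to each other. The mean was 698 ± 176 CPM in HFD WT and 288 ± 149 CPM in HFD Inpp4b-/- (SD, n = 4 each), a ratio of 2.42. At -1.28 on the log2 scale (standard error 0.35), the gene did not pass edgeR's threshold (adjusted p = 0.171), and passed DESeq2's (-1.29, adjusted p = 0.00769). Its log2 fold change was between -1.57 and -1.06 when any 1 library was left out, with edgeR's adjusted p between 0.136 and 0.346. In bulk liver, fewer cells that express a gene and less of its RNA per cell cannot be told apart.

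*Cyp2c38* (chr19:39389556-39463075), an epoxygenase of arachidonic acid with female-biased expression, showed the opposite order. Its values were 5.72, 29.4, 9.57 and 16.8 CPM in HFD WT and 62.0, 90.6, 28.6 and 43.7 CPM in HFD Inpp4b-/-. Only WT replicate 2 reached into the range of the other genotype, where it lay just above Inpp4b-/- replicate 3. The mean was 15.4 ± 10.4 CPM in HFD WT and 56.2 ± 26.7 CPM in HFD Inpp4b-/- (SD, n = 4 each), a ratio of 3.66. The log2 fold change was 1.87 (standard error 0.49, edgeR, adjusted p = 0.154), and DESeq2 gave 1.87 (adjusted p = 0.0536). Without WT replicate 2 it was 2.39 (standard error 0.46, edgeR, adjusted p = 0.0628).

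*Cyp2c39* (chr19:39510862-39568529), which hydroxylates retinoic acid, lies beside *Cyp2c38*, and 82.0% of their promoter windows was identical. It was at 21.7, 77.0, 19.4 and 1.77 CPM in HFD WT and at 68.4, 151, 32.4 and 43.2 CPM in HFD Inpp4b-/-. Within each genotype, replicate 2 was the highest library for *Cyp2c39* and for *Cyp2c38* alike. *Cyp2c39* had a log2 fold change that was 1.299 (standard error 0.83, edgeR, adjusted p = 0.525) and 2.36 without WT replicate 2 (adjusted p = 0.195).

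*Cyp2c55* (chr19:39007019-39042693), a CAR and PXR target that oxidizes arachidonic acid, had the lowest log2 fold change of the tested P450 genes. Its values were 1.11, 64.1, 0.472 and 3.34 CPM in HFD WT and 0.888, 0.0263, 2.06 and 2.89 CPM in HFD Inpp4b-/-. WT replicate 2 exceeded the next HFD WT library 19.2-fold, and the other 7 libraries overlapped. On the log2 scale the difference was -3.57 (standard error 1.47, edgeR, adjusted p = 0.317), and -0.17 without that library (adjusted p = 0.954).

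*Cyp2c29* (chr19:39269405-39330713), an abundant epoxygenase, was at 553, 1968, 421 and 514 CPM in HFD WT. In HFD Inpp4b-/- it was at 364, 400, 584 and 619 CPM. WT replicate 2 was 3.56 times the next HFD WT library, and the remaining 7 lay between 364 and 619 CPM. Its log2 fold change was -0.81 (standard error 0.46, edgeR, adjusted p = 0.47), and -0.02 without WT replicate 2 (adjusted p = 0.97).

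*Cyp2c67* (chr19:39608842-39649051), the most abundant gene of the subfamily per kb of exon, was at 659, 416, 632 and 467 CPM in HFD WT. Those labelled HFD Inpp4b-/- held 381, 477, 519 and 386 CPM, within or just under the HFD WT range (log2 fold change -0.30, standard error 0.17, edgeR, adjusted p = 0.462). Per length of the longest coding transcript it was at 284 CPM per kb, below *Cyp2c29* at 380.2 and *Cyp2c70* at 287. Some of its reads may come from *Cyp2c40* and its other close copies, as the shared windows given above show. *Cyp2c23*, an epoxygenase, was steady between 293 and 421 CPM in all 8 libraries. *Cyp2c37* ranged from 27.4 to 182 CPM in HFD WT alone, with WT replicate 4 the highest. The closely related *Cyp2c50* and *Cyp2c54* had log2 fold changes of 0.39 and 0.41, and *Cyp2c68* had -0.20, none of them called. *Cyp2c54* was at 237 CPM in WT replicate 2 and at 138 CPM in the next HFD WT library, and its log2 fold change was 0.76 without WT replicate 2 (edgeR, adjusted p = 0.115). *Cyp2c40* and *Cyp2c69* were at or below 2.53 CPM in each library.

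**Figure D3:**
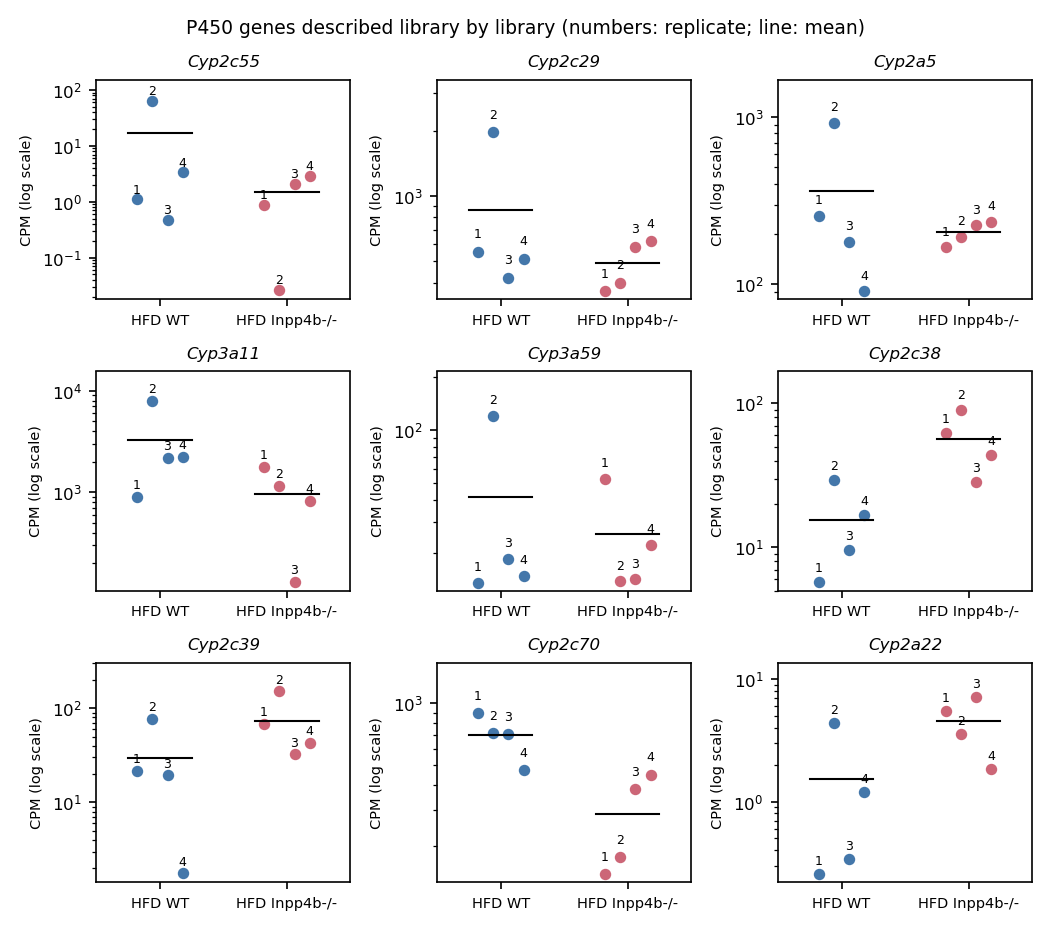
CPM (log axis) of 9 P450 genes in each library, with the replicate number above each point and a line at the mean of 4 libraries. In *Cyp2c55*, *Cyp2c29*, *Cyp2a5*, *Cyp3a11* and *Cyp3a59*, WT replicate 2 lies above the other 7 libraries, and in *Cyp2c70* all 4 HFD WT points lie above the 4 of HFD Inpp4b-/-.

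Subfamily 2d, whose human counterpart CYP2D6 oxidizes many amine drugs, summed to 2126 to 2546 CPM in the HFD WT libraries and 2323 to 2836 CPM in those labelled HFD Inpp4b-/-. *Cyp2d10* (chr15:82402846-82407195) was at 952, 897, 1031 and 927 CPM in HFD WT and at 1011, 1010, 949 and 1115 CPM in HFD Inpp4b-/- (log2 fold change 0.10, standard error 0.09, edgeR, adjusted p = 0.663). For *Cyp2d26* (chr15:82790101-82794294), the values were 763, 799.5, 861 and 712 CPM in HFD WT and 844, 791, 949 and 998 CPM in HFD Inpp4b-/- (log2 fold change 0.19, standard error 0.11, edgeR, adjusted p = 0.457). The highest library exceeded the lowest of the same genotype 1.26-fold at most in these 2 genes, and the genotypes overlapped in both. *Cyp2d22*, taken as the mouse gene closest to CYP2D6 in function, was between 454 and 667 CPM. *Cyp2d40*, *Cyp2d11* and *Cyp2d12* had log2 fold changes of -0.30, 0.23 and -0.73 and were not called. *Cyp2d34*, with at most 0.303 CPM in any library, was below the filter.

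*Cyp2e1* (chr7:140763739-140774987), the gene of highest level, was at 8125, 8291, 7331 and 4760 CPM in HFD WT and at 6196, 6440, 6529 and 6563 CPM in HFD Inpp4b-/-. WT replicate 4 was the lowest of the 8 libraries, as it was for *Cyp1a2*. The 4 libraries labelled HFD Inpp4b-/- lay within 1.06-fold of each other and inside the HFD WT range. Its log2 fold change was -0.15 (standard error 0.17, edgeR, adjusted p = 0.738).

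*Cyp2f2* (chr7:27119909-27133660), which bioactivates naphthalene, was at 907, 972, 1019 and 1205 CPM in HFD WT and at 1075, 1016, 1035 and 955 CPM in HFD Inpp4b-/-. The groups overlapped (log2 fold change -0.01, standard error 0.11, edgeR, adjusted p = 0.98). *Cyp2g1* (chr7:26808892-26821205), an enzyme of the olfactory mucosa, was barely detected, at 0.184, 1.76, 0.505 and 0.0384 CPM in HFD WT and 0.722, 0.736, 0.0322 and 0.253 CPM in HFD Inpp4b-/-. WT replicate 2 was again the highest, and its log2 fold change moved from -0.52 (standard error 0.98, edgeR, adjusted p = 0.851) to 0.82 without it (adjusted p = 0.728).

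Subfamily 2j, whose enzymes epoxidize arachidonic acid, was the only 1 of the 14 (7.14%) in which the summed levels of the genotypes did not overlap, a share near the 8.72% of all tested genes. The sum of its 4 genes was 647, 649, 614 and 504 CPM in HFD WT and 657, 719, 771 and 725 CPM in HFD Inpp4b-/-, a log2 ratio of the means of 0.25. The lowest library labelled HFD Inpp4b-/- thus lay just above the highest HFD WT library. *Cyp2j5* made up 88.4% of this sum. *Cyp2j5* (chr4:96628773-96664154) was at 572, 577, 551 and 450 CPM in HFD WT and at 570, 638, 685 and 629 CPM in HFD Inpp4b-/-, so that its groups overlapped (log2 fold change 0.23, standard error 0.11, edgeR, adjusted p = 0.37). *Cyp2j6* (chr4:96516138-96553661) was at 63.9, 62.4, 46.05 and 35.5 CPM in HFD WT and at 62.7, 63.1, 71.4 and 85.1 CPM in HFD Inpp4b-/-. Its log2 fold change was 0.44 (standard error 0.19, edgeR, adjusted p = 0.33). *Cyp2j9* had a log2 fold change of 0.23, and *Cyp2j8* was below the filter.

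The remaining single-gene subfamilies gave no call. *Cyp2r1* (chr7:114549682-114562972), the vitamin D 25-hydroxylase, was at 12.1, 13.7, 13.9 and 13.5 CPM in HFD WT and at 13.6, 12.3, 14.4 and 9.10 CPM in HFD Inpp4b-/- (log2 fold change -0.11, standard error 0.15, edgeR, adjusted p = 0.797). *Cyp2u1* (chr3:131288441-131303227), a fatty acid hydroxylase, was at 58.1, 50.01, 104 and 64.3 CPM in HFD WT and at 94.7, 105, 81.3 and 82.6 CPM in HFD Inpp4b-/-. WT replicate 3 lay within the range of the other genotype, and its removal gave the call stated above, while with all 8 libraries it was at 0.40 on the log2 scale (standard error 0.21, edgeR, adjusted p = 0.426).

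*Cyp2s1* (chr7:25802475-25816913), expressed mainly in epithelia outside the liver, was at 0.848, 0.126, 0.977 and 0.499 CPM in HFD WT. Its values in HFD Inpp4b-/- were 0.0832, 0.0263, 0.772 and 0.309 CPM, and the groups overlapped (log2 fold change -1.06, standard error 0.87, edgeR, adjusted p = 0.636). *Cyp2t4* (chr7:27153714-27158668), below the filter, was at 0.258, 0.252, 0.0674 and 0.0768 CPM in HFD WT. In HFD Inpp4b-/- it was at 0.166, 0.263, 0.257 and 0.0562 CPM (log2 ratio 0.12, two-sided exact permutation test, p = 0.886).

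Subfamily 3a metabolizes the largest share of drugs and also steroids. *Cyp3a11* (chr5:145854426-145879964), the counterpart of human CYP3A4 and a PXR target, was at 889, 7866, 2169 and 2237 CPM in HFD WT and at 1781, 1145, 131 and 825 CPM in HFD Inpp4b-/-. Its range was 8.85-fold among the HFD WT libraries and 13.6-fold among those labelled HFD Inpp4b-/-, with Inpp4b-/- replicate 3 lowest. The log2 fold change was -1.76 (standard error 0.77, edgeR, adjusted p = 0.35), and -0.87 without WT replicate 2 (standard error 0.66, adjusted p = 0.568). *Cyp3a13* (chr5:137892932-137921619) was at 99.6, 48.3, 41.7 and 55.1 CPM in HFD WT and at 75.2, 81.9, 190 and 110.1 CPM in HFD Inpp4b-/-. WT replicate 1 overlapped with the other genotype, and Inpp4b-/- replicate 3, lowest for *Cyp3a11*, was here the highest of the 8 (log2 fold change 0.90, standard error 0.34, edgeR, adjusted p = 0.281).

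*Cyp3a25* ranged from 439 to 927 CPM and *Cyp3a59* from 13.6 to 119.9 CPM, and WT replicate 2 was the highest library of both. Their promoter windows were 96.0% identical, and their log2 fold changes went from 0.14 to 0.43 and from -0.70 to 0.71 when WT replicate 2 was left out. The 3 remaining genes, *Cyp3a16*, *Cyp3a41b* and *Cyp3a44*, are female-biased in mouse liver and were below the filter in these males. *Cyp3a16* was counted 1, 40, 11 and 11 times in HFD WT and 1, 5, 0 and 2 times in HFD Inpp4b-/- (two-sided exact permutation test, p = 0.0857). DESeq2 called it, with a log2 fold change of -3.25 and an adjusted p of 0.0655. The count table held only genes with a read in every library of a genotype. Inpp4b-/- replicate 3 had no read of *Cyp3a16*, so this gene is in the table only through HFD WT, where it was higher. Neither test of *Cyp3a16* is therefore independent evidence of a fall. WT replicate 2 held most of its HFD WT counts, and without that library the mean was 0.277 CPM in HFD WT against 0.0538 CPM in HFD Inpp4b-/-, a ratio of 5.14 in place of 9.71. *Cyp3a41b* had 1 count in each library labelled HFD Inpp4b-/- and 1, 13, 1 and 3 counts in HFD WT.

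**Figure D4:**
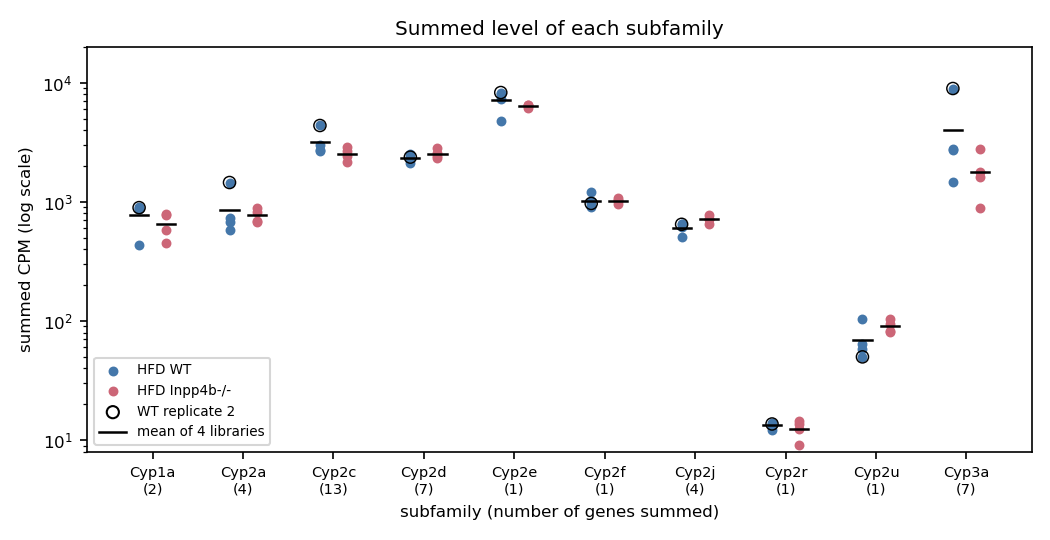
Summed CPM per library (log axis) of the 10 subfamilies with over 10 CPM, with the number of genes summed, a line at the mean of 4 libraries and a ring around WT replicate 2. Subfamily 2j is the one whose genotypes do not overlap, and the ring lies far above the other points in subfamilies 2a and 3a.

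By subfamily, the log2 ratio of the summed means was -0.33 for 2c, 0.12 for 2d, -0.16 for 2a and -1.17 for 3a. Without WT replicate 2 these were -0.14, 0.13, 0.22 and -0.40, so that subfamily 2a changed sign. The sums of subfamily 3a were 1464, 8964, 2784 and 2747 CPM in HFD WT and 2769, 1782, 895 and 1624 CPM in HFD Inpp4b-/-, of which *Cyp3a11* made up 74.0%. A sum follows its most abundant genes and was given no test.

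The members of 3 groups defined by known biology were counted in the same fit. The female-biased P450 genes had 0 of 5 tested genes called, with a median log2 fold change of -0.01. Without WT replicate 2, 1 was called (*Cyp2c38*), against 2.26% of all tested genes, and the median was 2.36. *Cyp2a4*, *Cyp2c38* and *Cyp2c39* were then at 2.68, 2.39 and 2.36, and *Cyp2c40* and *Cyp2c69* at -0.07 and -0.35. That library was singled out for high values in the P450 genes and was the highest HFD WT library for the first 3. Leaving it out therefore raises these 3 and the median, which is not independent evidence of a rise. *Cyp2a4* is also in the count table only through HFD Inpp4b-/-. With all libraries, DESeq2 called *Cyp2c38* (1.87) and *Cyp3a16* (-3.25) of this list, in opposite directions, against 4.04% of all genes it tested. *Cyp3a16* is in the count table only through HFD WT, as given above. Below the filter, *Cyp3a16*, *Cyp3a41b* and *Cyp3a44* had log2 ratios of -2.02, -0.95 and -0.58 with all libraries. Without WT replicate 2, their HFD WT means were 0.277, 0.0619 and 0.293 CPM. In HFD Inpp4b-/- the means were 0.0538, 0.0286 and 0.203 CPM. The pericentral P450 genes had 0 of 9 called and a median of -0.15, and 0.03 without that library. Of the fatty acid epoxygenases and hydroxylases, 0 of 13 were called by edgeR, with a median of 0.23. Positive values numbered 9, against 50.4% of all tested genes, and 3 had an unadjusted p under 0.05, against 13.9%. DESeq2 called 1 (*Cyp2c38*), as did edgeR without WT replicate 2, against 4.04% and 2.26% of all genes. *Cyp2c23*, named above as an epoxygenase, was not on this list. The median of all tested genes was 0.00275, as given above.

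**Figure D5:**
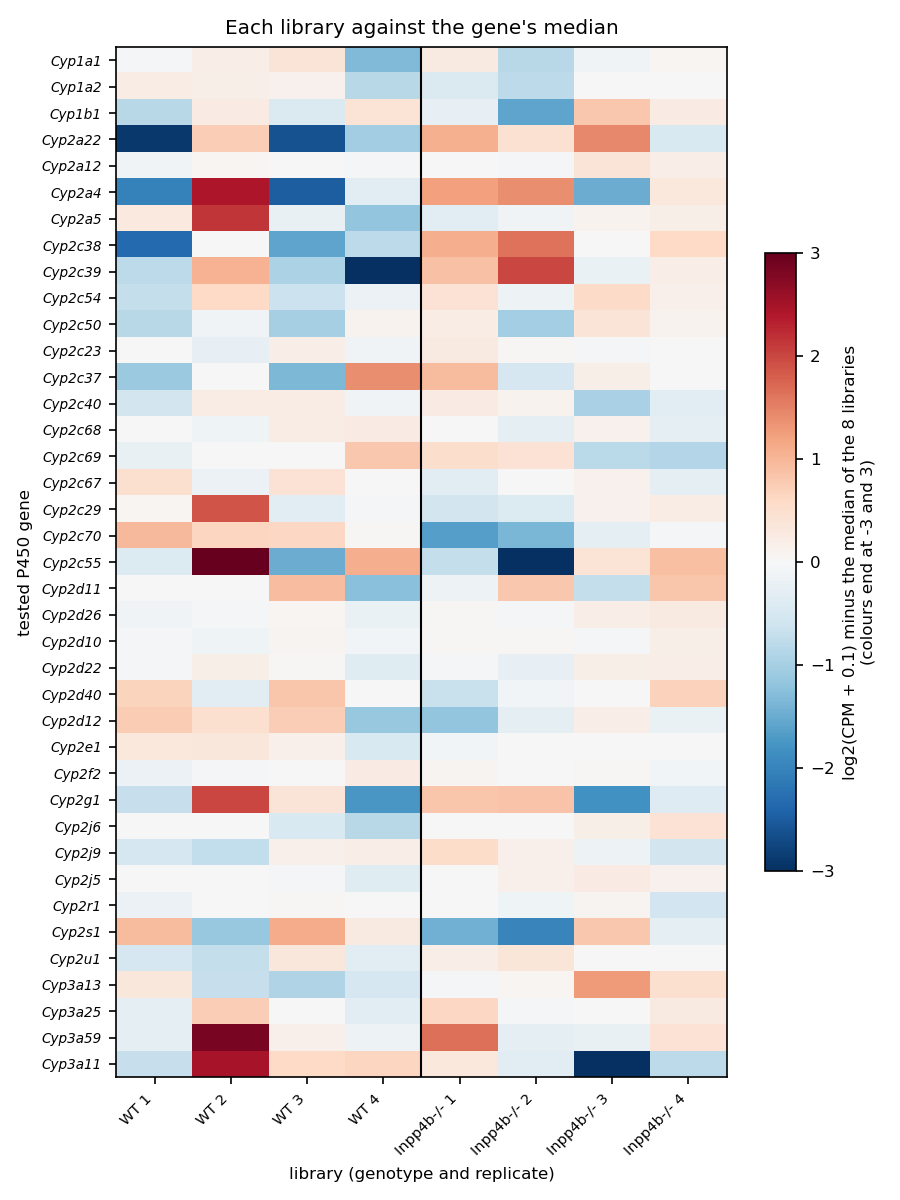
Level of the 39 tested P450 genes in each library as log2(CPM + 0.1) minus the median of the 8 libraries, ordered by subfamily, with HFD WT left and HFD Inpp4b-/- right of the line. The second column, WT replicate 2, holds the highest values of *Cyp2a4*, *Cyp2a5*, *Cyp2c29*, *Cyp2c55*, *Cyp3a59* and *Cyp3a11*, while most Cyp2d genes are pale throughout.

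Outside the P450 genes, other targets of CAR and PXR were also high in WT replicate 2. It was the highest HFD WT library for 15 of the 20 tested genes of this list (75.0%), against the 26.2% of all tested genes given above. The glutathione transferase gene *Gstm3* was at 78.1, 1054, 60.5 and 67.1 CPM in HFD WT. The bile acid and drug transporter gene *Slco1a4* was at 21.6, 153.6, 19.5 and 13.1 CPM. *Cyp2b10*, the classical CAR target left out of the 45 genes, was at 1.18, 86.8, 1.79 and 0.922 CPM. These 3 were named with their values in view. The CAR gene (*Nr1i3*) was at 28.6, 53.0, 39.4 and 23.004 CPM in HFD WT, highest in WT replicate 2. The PXR gene (*Nr1i2*) was at 137, 109, 86.6 and 72.5 CPM, highest in WT replicate 1. What set WT replicate 2 apart was not tested. The list of pericentral genes outside the P450s also had this library highest for 13 of 16 genes, 1 of which (*Aldh1a1*) is in both lists, and the AHR targets for 6 of 7. It was the highest for 8 of 17 periportal genes (47.1%) and 9 of 24 genes of other P450 families (37.5%). For regulators of P450 genes it was so in 7 of 25 (28.0%), and for electron transfer and haem genes in 5 of 18 (27.8%).

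Between the genotypes, the CAR and PXR targets had 0 of 20 genes called by edgeR, with 4 at an unadjusted p under 0.05 (13.9% of all tested genes) and 3 called by DESeq2 (*Gadd45b*, *Sult1e1* and *Gstm1*, against 4.04% of all genes), and a median log2 fold change of -0.13. *Gstm3* was called by edgeR without WT replicate 2 (log2 fold change -1.45, adjusted p = 0.037) and not with it (-3.64, adjusted p = 0.155). Of the 7 tested AHR targets outside the P450s, 2 were called, against 1.17% of all genes. *Lpcat2*, which makes phosphatidylcholine, rose (log2 fold change 1.73, edgeR, adjusted p = 0.0871) and the glucuronosyltransferase gene *Ugt1a6b* fell (-0.66, adjusted p = 0.0942). Their values did not overlap between the genotypes, *Lpcat2* being at 0.230 to 0.409 CPM in HFD WT and at 0.702 to 1.37 CPM in the libraries labelled HFD Inpp4b-/-. *Lpcat2* kept its call only without WT replicate 2 among the 8 fits that each left out 1 library, with adjusted p from edgeR between 0.0979 and 0.234. *Ugt1a6b* kept it only without WT replicate 1 or 2 (adjusted p 0.093 to 0.217). *Lpcat2* lies on chromosome 8, as does *Inpp4b*. The first exons of the Ugt1a genes share their remaining exons, so counts of *Ugt1a6b* are uncertain.

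Among 25 tested regulators of P450 genes, 1 was called by edgeR, against 1.17% of all tested genes. An unadjusted p under 0.05 was reached by 7 of them, against 13.9% of all tested genes. DESeq2 called 2, *Foxa2* and *Foxa1*, against 4.04% of all genes it tested. *Foxa2*, a liver transcription factor, rose, with 28.6, 27.4, 25.0 and 42.3 CPM in HFD WT and 60.7, 86.2, 54.1 and 74.1 CPM in HFD Inpp4b-/- (log2 fold change 1.16, standard error 0.19, edgeR, adjusted p = 0.0351). The groups did not overlap, and the call was lost without WT replicate 1 (edgeR, adjusted p = 0.103) or Inpp4b-/- replicate 2 (0.109). The receptor genes *Ahr*, *Nr1i2* and *Nr1i3* had log2 fold changes of -0.27, 0.03 and 0.10 and were not called.

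None of the 18 electron transfer and haem genes was called by edgeR. An unadjusted p under 0.05 was reached by 2 (13.9% of all tested genes), and DESeq2 called 1, *Alad* (4.04% of all genes). *Por*, the reductase that supplies P450 enzymes with electrons, was at 782, 805, 545 and 405 CPM in HFD WT and at 314, 290, 675 and 725 CPM in HFD Inpp4b-/-. Inpp4b-/- replicates 1 and 2 were low and replicates 3 and 4 were high, so the groups overlapped (log2 fold change -0.34, standard error 0.33, edgeR, adjusted p = 0.694). *Cyp2c70* had the same split, with replicates 1 and 2 at 146 and 177 CPM and replicates 3 and 4 at 380 and 448 CPM.

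Pericentral genes outside the P450s had 0 of 16 called by edgeR (2 at an unadjusted p under 0.05, 0 by DESeq2), with a median log2 fold change of -0.20. Periportal genes had 0 of 17 called (4 at an unadjusted p under 0.05, 1 by DESeq2, *Spp1*, also a bile duct marker), with a median of 0.10. Over all tested genes, 13.9% had an unadjusted p under 0.05, and DESeq2 called 4.04% of the genes it tested. Marker genes of other cells gave 1 call by edgeR in all lists, *Hba-a2* of red cells, which fell (log2 fold change -2.92, edgeR, adjusted p = 0.057) and kept its call only without WT replicate 2 or 4 (adjusted p 0.0101 to 0.178 with 1 library left out). The red cell list as a whole did not fall, with 3 of 5 tested genes positive and a median log2 fold change of 0.10. The stellate cell marker *Lrat* was called by DESeq2 and by edgeR without WT replicate 2, against 4.04% and 2.26% of all genes. Of the 8 stellate cell and fibroblast markers, 3 had an unadjusted p under 0.05, against 13.9% of all tested genes. Their log2 fold changes were positive in 4 of 8, with a median of 0.11. The 8 Kupffer cell and macrophage markers had a sum of 50.3 to 149.7 CPM per HFD WT library and of 104.8 to 188.0 CPM per library labelled HFD Inpp4b-/-, with 7 of 8 log2 fold changes positive and none called. The part of such cells in the P450 values was not tested.

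P450 genes of family 4 and above, which act on fatty acids and sterols, gave 4 calls among 24 tested genes, against 1.17% of all tested genes. In these families, 7 of the 24 had an unadjusted p under 0.05 (13.9% of all tested genes did). DESeq2 called 6, these 4 with *Cyp46a1* and *Cyp4a14*, against 4.04% of all genes it tested. The fatty acid hydroxylase genes *Cyp4a31* and *Cyp4a12b* fell (log2 fold change -2.54 and -2.97, edgeR, adjusted p = 0.00818 and 0.00787), as did the oxysterol hydroxylase gene *Cyp7b1* (-0.96, adjusted p = 0.0869). *Cyp4a32* rose (1.43, adjusted p = 0.0937). *Cyp7b1* kept its call only without WT replicate 2 (edgeR, adjusted p 0.0133 to 0.238 with 1 library left out), and *Cyp4a32* only without WT replicate 1 or 4 (0.0552 to 0.216). The Cyp4a genes are close copies whose counts can be mixed. No difference between these families and families 1 to 3 was tested.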

How the data were processed

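The authors aligned the reads to GRCm38 with HISAT2 and counted them per gene with HTSeq, and they deposited raw counts, which were used here. Their table of normalized counts was not used, and no count column lacked a sample. The table held genes with at least 1 read in every library of a genotype. Symbols, positions and exon lengths came from GENCODE M21, in which all 18095 identifiers were found. Which annotation release and strand setting were used for counting is not given in the sources used here, so overlapping genes are uncertain.

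The quasi-likelihood test of edgeR 4.0.16 (TMM, filterByExpr, genotype alone) was applied to the counts of 14866 genes, with Benjamini-Hochberg adjustment over all of them. Calls needed an adjusted p below 0.10 and a change of more than 1.3-fold. Replicates had a biological coefficient of variation of 0.251. Genes below the filter were given a log2 ratio of mean CPM with 0.1 added and an exact permutation test over 70 arrangements, whose smallest p is 0.0286. The alternatives were DESeq2 1.42.0, other normalizations and filters, a block for the replicate number and the removal of each library in turn. The length of the longest transcript was added after the data were seen. R 4.3.3 and Python 3.11.15 were used, and the fit was tested on simulated data.

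Full values are given for the 5 highest and 5 lowest log2 fold changes among tested P450 genes that averaged 50 counts or more, the gene of highest level per subfamily, and the 6 highest levels in all. Called genes of the lists, with *Por*, *Ahr*, *Nr1i2*, *Nr1i3* and *Inpp4b*, were also named by rule, but full values are given for only some of them. Others were named after their values were seen. The genes and lists were chosen with earlier results of these data known. Libraries of the same number did not deviate together (correlation -0.170 to -0.010), so they were not paired.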

Additional observations from a re-analysis of the deposited data

Results flagged for a closer look

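In 8 of 112 groups of 4 values, 1 sample lay farther from the other 3 of its genotype than Dixon's 95% limit allows. Chance would give about 1 in 20, or 5.6. WT replicate 2 was the high sample for *Cyp2c29* (1968 CPM, the next HFD WT library 553), *Cyp2c55* (64.1 CPM, next 3.34), *Cyp3a59* (119.9 CPM, next 18.6), *Cyp2a4* (2.87 CPM, next 0.346) and the summed subfamily 2a (1456 CPM, next 727). WT replicate 4 was the low sample for *Cyp1a2* (438 CPM, the next 866) and for the summed subfamily 1a (439 CPM, next 867), which is nearly the same measurement. It was the high sample for *Cyp2c69* (1.31 CPM, next 0.707).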

How the results depend on the processing

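The number of P450 genes called was 0 under the other normalizations and filters and the replicate block, 3 with DESeq2, and 0 to 2 when 1 library was left out. Over all tested genes, 174 calls became 688 with DESeq2, 26 with the replicate block, 71 at an adjusted p under 0.05, and 53 to 345 when 1 library was left out, the lowest without Inpp4b-/- replicate 2 and the highest without WT replicate 2. Calls in the lists outside the P450s of families 1 to 3, cell markers left aside, numbered 7 with all libraries, 15 with DESeq2, 2 with the replicate block, 3 at an adjusted p under 0.05, and 2 to 10 without 1 library. Replicate numbers did not pair the libraries, so a call lost under the block is not a weaker effect.

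Of the 39 tested P450 genes, 14 changed direction in at least 1 fit without a library, and none of the 14 was called with all libraries. Among the genes named by rule, such log2 fold changes ranged from -0.32 to 0.45 for *Cyp1b1*, -1.14 to 0.21 for *Cyp2a5*, -0.061 to 0.080 for *Cyp2f2*, -0.90 to 0.82 for *Cyp2g1*, -0.19 to 0.017 for *Cyp2r1*, -0.10 to 0.21 for *Nr1i2*, -0.064 to 0.34 for *Nr1i3*, and -0.056 to 0.77 for *Inpp4b*. *Cyp1b1* was at -0.018 with the replicate block, and *Cyp2f2* at 0.019 with upper quartile normalization. Without its most abundant gene, the summed log2 ratio was -0.79 for subfamily 2a, 0.40 for 2j and 0.19 for 3a. Per length of the longest transcript, *Cyp2e1* was at 3698 and *Cyp3a11* at 909 CPM per kb. The causes of these differences were not tested. Genes with few counts, such as *Cyp3a16*, *Cyp2t4* and *Cyp2j8*, are limited by depth, and with 4 mice per genotype the standard error of a log2 fold change reached 1.47 (*Cyp2c55*).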
